A study of Arachis hypogaea with 14 samples.

Results

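miR162, miR168 and miR1515 are miRNA families known to act on the small RNA machinery itself, and 15 different sequences of them were listed among the 795 sequences of a peanut seed small RNA table. They were taken by name: every entry named as an isoform or hairpin arm of exactly these 3 families was kept, with 1 entry per sequence. There were 3 sequences of miR162, 4 of miR168 and 8 of miR1515. Small RNAs were sequenced from seeds of the peanut (Arachis hypogaea) lines 8107, a line with very large pods, and 8106, a line with medium-sized pods. Both are recombinant inbred lines of the 8th generation, and seeds were taken 35 and 15 days after flowering (DAF). Each of the 4 groups, 8107 at 35 DAF, 8106 at 35 DAF, 8107 at 15 DAF and 8106 at 15 DAF, had 3 libraries. The labels name no treatment and no introduced allele. A further 2 degradome libraries, 1 per line and each holding both stages, captured the 5′ ends of cleaved transcripts. Each line stands for a single genotype, so a difference between 8107 and 8106 cannot be told apart from any other difference between these inbreds. Whole seeds were used, so a change in the share of a cell type and a change in level per cell cannot be told apart either.

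Plant miRNAs are cut from hairpin precursors by DICER-LIKE 1 (DCL1) and are loaded into ARGONAUTE 1 (AGO1), which cleaves transcripts that match the miRNA. In Arabidopsis, miR162 targets the DCL1 transcript and miR168 targets the AGO1 transcript, so each limits a protein that its own production or action depends on. In soybean, miR1515 targets DCL2, a dicer that makes secondary small interfering RNAs. A hairpin releases a duplex of which 1 strand is usually kept: the 3′ arm for miR162 and the 5′ arm for miR168.

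The sequences below, from the deposited small RNA table, are the members on which the results turn. Capitals mark the seed, bases 2 to 8, and T stands for U. Prefixes give the species of the matched miRNA (gma, soybean; mtr, Medicago truncatula; csi, sweet orange; ptc, poplar), R and L count extra or missing bases at the 3′ end (R) or the 5′ end (L), and MIR with p5 or p3 marks the other arm of a known hairpin.
gma-miR162a_R+1: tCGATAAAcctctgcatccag
gma-MIR162c-p5: gGAGGCAGcggttcatcgatc
gma-miR168a: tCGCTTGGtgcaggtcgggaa
gma-MIR168a-p3: cCCGCCTTgcatcaactgaat
mtr-miR168c-3p_R+1: cCCGCCTTgcatcaactgaatt
csi-miR1515: tCATTTTTgcgtgcaatgatcc
csi-miR1515_1ss11GA: tCATTTTTgcatgcaatgatcc
csi-miR1515_L-1: cATTTTTGcgtgcaatgatcc
csi-MIR1515-p3_1ss19GA: tTTGCGTGcaatgatcccaaat

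The 15 sequences carried 10 different seeds. The seed CGATAAA was shared by gma-miR162a_R+1 and the longer ptc-miR162a_R+1, CGCTTGG by gma-miR168a and the longer mtr-miR168b_R+3, and CCGCCTT by both 3′ arm sequences of miR168. The seed CATTTTT was shared by csi-miR1515, csi-miR1515_1ss11GA and csi-miR1515_R+1_1ss11GA. The remaining miR1515 sequences began at another base and so had seeds of their own. Against csi-miR1515, counted from 1 at its 5′ end, csi-miR1515_1ss11GA differed by G11A alone. Below these are called the G form and the A form of miR1515, and 4 of the 8 miR1515 sequences carried G11A. csi-MIR1515-p3_1ss19GA, although named for a hairpin arm, shared 17 bases with csi-miR1515 without a mismatch, starting 5 bases further in. Lengths ran from 18 to 24 bases. Per the labels' protocols, gel fractions of 22 to 30 nt were isolated, and 7 of the 15 sequences were shorter than that. The effect of the fraction on their levels was not tested.

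Levels are in normalized reads as the authors deposited them, by a normalization that was not given in the sources used here. Library totals were 464658 to 527704 in 8107 at 35 DAF, 998924 to 1086382 in 8106 at 35 DAF, 604325 to 641690 in 8107 at 15 DAF and 660450 to 684045 in 8106 at 15 DAF. The totals thus differed most between the lines at 35 DAF, where a level difference depends on whether totals are made equal. Values of a library were nearly all whole multiples of a step, and dividing by it put the depth of the listed entries at an estimated 580011 to 3243623 reads. The lowest value above 0 stood for 6 steps in 11 of 12 libraries, so a value of 0 may hide a few reads. Of the 15 sequences, 11 reached 10 normalized reads in at least 3 of the 12 libraries and were tested; 8 of these were above 0 in all 12 libraries. Differences between groups are log2 differences of value + 1 with their SE, from limma across all 395 entries tested, and adjusted p is Benjamini-Hochberg over those entries, called at under 0.05.

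The 5′ arm of miR168, gma-miR168a, was by far the most abundant member and ranked 10 by mean level among the 795 sequences. It read 7719, 8969 and 5856 in 8107 at 35 DAF, 12506, 18561 and 9000 in 8106 at 35 DAF, 10942, 14418 and 12204 in 8107 at 15 DAF, and 13765, 17659 and 15411 in 8106 at 15 DAF. The libraries of 8107 at 35 DAF were the 3 lowest of the 12, and the other groups overlapped each other. On the deposited scale miR168a was called lower in 8107 than in 8106 at 35 DAF, with a log2 difference of -0.79 ± 0.25 (limma, adjusted p = 0.0245, lower in 3 of 3 libraries). The sign turned with equal library totals (0.27), with quantile normalization (0.02) and with voom (0.33, adjusted p = 0.0785). No direction is thus given beyond the deposited scale. With the 6 libraries compared alone, adjusted p was 0.119. The call was also lost without 1 of several libraries: adjusted p was 0.0556 without 8106 replicate 1, 0.0654 without 8106 replicate 2, 0.0513 without 8107 replicate 1 and 0.0924 without 8107 replicate 3. Within 8107, miR168a fell at 35 DAF relative to 15 DAF, with a log2 difference of -0.75 ± 0.25 (limma, adjusted p = 0.0335), one of -0.42 (adjusted p = 0.147) at equal totals and 0.00 under quantile normalization. Adjusted p for that change was 0.113 without replicate 2 at 15 DAF, 0.0754 without replicate 3 at 15 DAF, 0.0682 without replicate 1 at 35 DAF and 0.127 without replicate 3 at 35 DAF. In 8106 the difference between 35 and 15 DAF was -0.28 ± 0.25 (limma, adjusted p = 0.451). It passed at equal library totals (-0.89, adjusted p = 0.00853), under quantile normalization (-0.64, adjusted p = 0.00288) and with voom (-0.94, adjusted p = 0.000186), so the line in which miR168a fell with stage depended on the scaling. The stage changes of the lines differed by -0.47 ± 0.36 (limma, adjusted p = 0.315), which turned to 0.47 at equal totals. Between the lines at 15 DAF the difference was -0.32 ± 0.25 (limma, adjusted p = 0.407), and it passed under quantile normalization (-0.62, adjusted p = 0.00847).

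**Figure D1:**
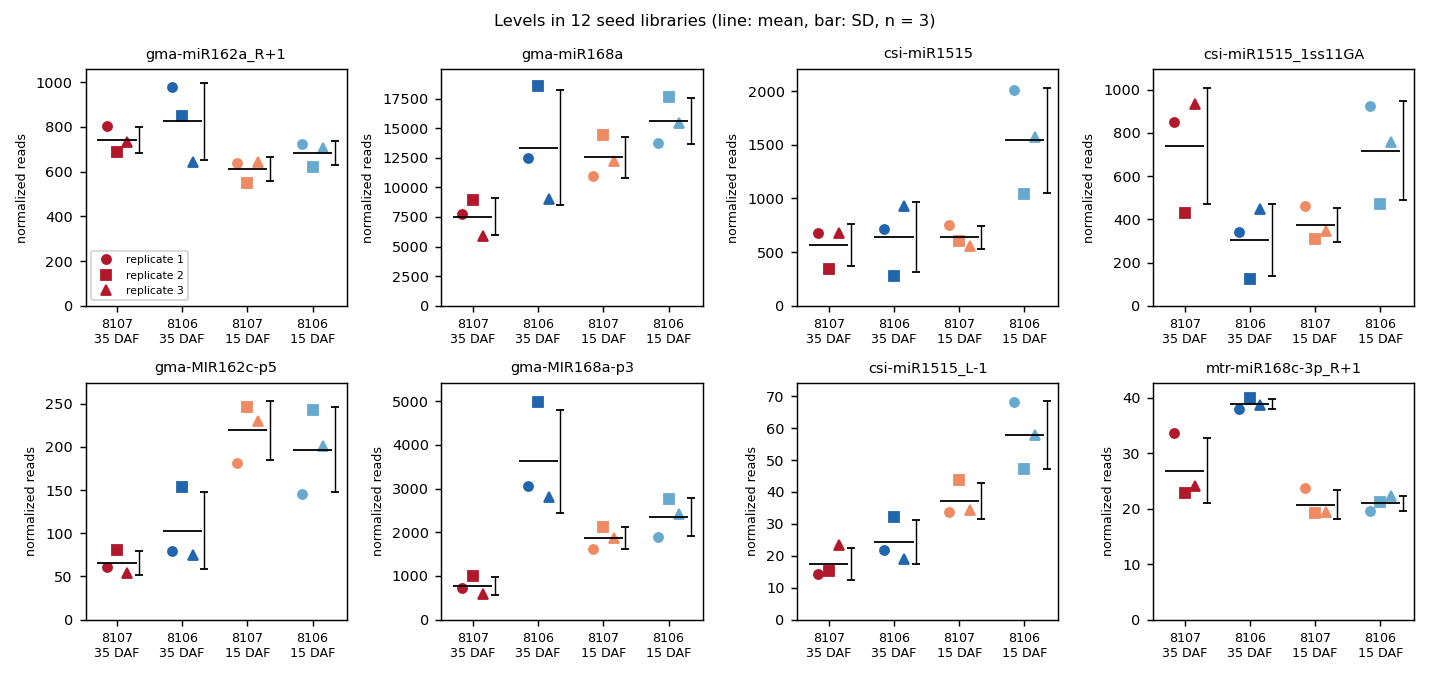
Normalized reads (vertical axes, linear from 0) of the 8 sequences above 0 in every library, in 8107 and 8106 seeds at 35 and 15 DAF; each point is a library, the line is the mean and the bar the SD of 3 libraries. gma-MIR168a-p3 lies between 582 and 995 in 8107 at 35 DAF, below the 2818 to 4982 of 8106 at 35 DAF and below all libraries at 15 DAF.

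The opposite strand of the miR168 duplex is usually degraded, and its level set the lines apart at 35 DAF. gma-MIR168a-p3 read 737, 995 and 582 in 8107 at 35 DAF against 3070, 4982 and 2818 in 8106 at 35 DAF. At 15 DAF it read 1628, 2113 and 1862 in 8107 and 1897, 2759 and 2412 in 8106. The groups did not overlap at 35 DAF: 8107 held the 3 lowest of all 12 libraries and 8106 the 3 highest, whereas at 15 DAF the lines overlapped. At 35 DAF the strand fell in 8107 relative to 8106, with a log2 difference of -2.22 ± 0.26 (limma, adjusted p = 4.15e-05), and of -1.16 (adjusted p = 0.00105) at equal library totals. Within 8107 it fell at 35 DAF relative to 15 DAF, with a log2 difference of -1.30 ± 0.26 (limma, adjusted p = 0.00199, lower in 3 of 3 libraries). In 8106 the difference between 35 and 15 DAF was 0.59 ± 0.26 (limma, adjusted p = 0.106), and it was -0.02 at equal totals, so no direction is given. The stage change differed between the lines by -1.89 ± 0.36 (limma, adjusted p = 0.0021).

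Within a library, the ratio of the strands does not depend on how the library was scaled. gma-MIR168a-p3 amounted to 9.54, 11.1 and 9.93% of gma-miR168a in 8107 at 35 DAF, against 24.5, 26.8 and 31.3% in 8106 at 35 DAF. At 15 DAF the percentages were 14.9, 14.7 and 15.3 in 8107 and 13.8, 15.6 and 15.6 in 8106. The lines overlapped at 15 DAF and were apart at 35 DAF, where 8107 lay below and 8106 above every library at 15 DAF. The means were 10.2 ± 0.81% in 8107 and 27.6 ± 3.4% in 8106 at 35 DAF, and 14.9 ± 0.30% in 8107 and 15.0 ± 1.1% in 8106 at 15 DAF (SD, n = 3 each). These ratios are given without a test; an exact two-sided permutation test of 3 libraries against 3 cannot go below p = 0.10.

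A 3′ arm of miR168 longer by 1 base, mtr-miR168c-3p_R+1, was far less abundant. It read 33.5, 22.8 and 24.0 in 8107 at 35 DAF against 38.0, 39.9 and 38.6 in 8106 at 35 DAF, and 23.7, 19.2 and 19.3 in 8107 against 19.5, 21.1 and 22.2 in 8106 at 15 DAF. The libraries of 8106 at 35 DAF were the 3 highest of the 12. Within 8106 it rose at 35 DAF relative to 15 DAF, with a log2 difference of 0.86 ± 0.21 (limma, adjusted p = 0.00873), with 0.27 (adjusted p = 0.39) at equal library totals. The difference between the lines at 35 DAF was -0.54 ± 0.21 (limma, adjusted p = 0.0578), with adjusted p = 0.0268 without 8107 replicate 1. It was called lower under median centring (-0.94, adjusted p = 0.00894), quantile normalization (-0.88, adjusted p = 0.0281) and a pseudocount of 10 (-0.42, adjusted p = 0.0405), and higher with voom (0.66, adjusted p = 0.00997), and it was 0.48 (adjusted p = 0.0826) at equal totals, so no direction is given. As a percentage of gma-MIR168a-p3 it stood at 4.55, 2.30 and 4.13 in 8107 at 35 DAF, against 1.24, 0.80 and 1.37 in 8106 at 35 DAF. The percentages at 15 DAF ran from 0.907 to 1.46 in 8107 and from 0.766 to 1.03 in 8106. The 3 libraries of 8107 at 35 DAF were above the other 9. The fourth miR168 sequence, mtr-miR168b_R+3, extends miR168a by 3 bases; it was listed above 0 in 5 of 12 libraries, at 8.81 or less, and was not tested.

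**Figure D2:**
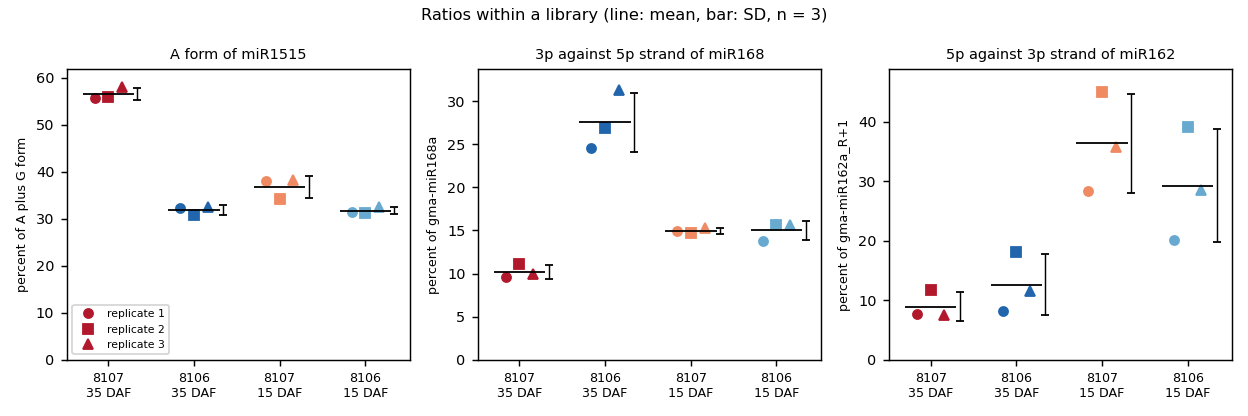
Ratios within a library in percent (vertical axes from 0): the A form of miR1515 over the sum of A and G forms, gma-MIR168a-p3 over gma-miR168a, and gma-MIR162c-p5 over gma-miR162a_R+1; points are libraries, lines means and bars SD (n = 3). The A form stands at 55.7 to 58.1% in 8107 at 35 DAF and between 30.7 and 38.3% in the other 9 libraries.

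miR1515 was present in 2 main forms. The G form, csi-miR1515, read 675, 339 and 676 in 8107 at 35 DAF, 718, 279 and 926 in 8106 at 35 DAF, 755, 599 and 557 in 8107 at 15 DAF, and 2014, 1038 and 1574 in 8106 at 15 DAF. The libraries of 8106 at 15 DAF were the 3 highest, and the other 3 groups overlapped. Within 8106 the G form fell at 35 DAF relative to 15 DAF, with a log2 difference of -1.38 ± 0.44 (limma, adjusted p = 0.0327, lower in 3 of 3 libraries). Adjusted p for that change was 0.112 without replicate 1 at 15 DAF, 0.0898 without replicate 3 at 15 DAF and 0.0827 without replicate 2 at 35 DAF. The call was also lost under quantile normalization (-1.32, adjusted p = 0.0644), with no filter (adjusted p = 0.0505) and with the 6 libraries alone (adjusted p = 0.127). It held at equal library totals (-1.99, adjusted p = 0.00684), under median centring (-1.17, adjusted p = 0.0371) and with voom (-1.66, adjusted p = 0.000243). At 15 DAF the G form was below 8106 in all 3 libraries of 8107, with a log2 difference of -1.23 ± 0.44 that did not pass (limma, adjusted p = 0.0725). Adjusted p was 0.0388 under quantile normalization, 0.0248 under median centring and 0.00151 with voom. It was 0.0483 with entries at 50 or more and 0.0308 with the 6 libraries alone. The difference did not pass at equal library totals (adjusted p = 0.12), with no filter (0.106) or with a pseudocount of 10 (0.0566). Nor did it pass with any 1 library left out. In 8107 the difference between 35 and 15 DAF was -0.23 ± 0.44 (limma, adjusted p = 0.698), with 0.10 at equal library totals. Between the lines at 35 DAF the G form differed by -0.09 ± 0.44 (limma, adjusted p = 0.915). That difference was -0.71 (adjusted p = 0.266) under quantile normalization and 0.97 (adjusted p = 0.111) at equal library totals. With voom it was called higher (0.84, adjusted p = 0.0212), so no direction is given.

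The A form, csi-miR1515_1ss11GA, read 849, 432 and 936 in 8107 at 35 DAF, 342, 124 and 448 in 8106 at 35 DAF, 461, 310 and 345 in 8107 at 15 DAF, and 923, 471 and 758 in 8106 at 15 DAF. The lines overlapped at 35 DAF, where 8107 replicate 2 lay below 8106 replicate 3, and were apart at 15 DAF, where 8107 was lower. Relative to 8106, the A form rose in 8107 at 35 DAF, with a log2 difference of 1.39 ± 0.47 (limma, adjusted p = 0.0326). The difference was 2.44 (adjusted p = 0.00189) at equal library totals, 0.88 (adjusted p = 0.144) under quantile normalization and 0.99 (adjusted p = 0.0672) under median centring. Adjusted p for that difference was 0.0868 without 8106 replicate 2, 0.0946 without 8107 replicate 1 and 0.105 without 8107 replicate 3. Within 8106 it fell at 35 DAF relative to 15 DAF, with a log2 difference of -1.37 ± 0.47 (limma, adjusted p = 0.0444). Adjusted p for that change was 0.143 without replicate 1 at 15 DAF, 0.122 without replicate 3 at 15 DAF, 0.0545 without replicate 1 at 35 DAF and 0.119 without replicate 2 at 35 DAF. The call was also lost under quantile normalization (-1.04, adjusted p = 0.112) and median centring (-1.16, adjusted p = 0.053). It was lost too with no filter (adjusted p = 0.0689) and with the 6 libraries alone (adjusted p = 0.148). It held at equal library totals (-1.97, adjusted p = 0.0103) and with voom (-1.67, adjusted p = 0.000537). In 8107 the difference between 35 and 15 DAF was 0.93 ± 0.47 (limma, adjusted p = 0.136), and between the lines at 15 DAF it was -0.91 ± 0.47 (limma, adjusted p = 0.202). With voom both passed, at 1.52 (adjusted p = 0.000578) and -0.88 (adjusted p = 0.0158). The stage change of the A form differed between the lines by 2.30 ± 0.67 (limma, adjusted p = 0.0195), with adjusted p = 0.0505 without 8107 replicate 3 at 35 DAF. For the G form the same difference was 1.15 ± 0.63 (limma, adjusted p = 0.165), and it passed at equal library totals (2.08, adjusted p = 0.0277) and with voom (2.07, adjusted p = 0.000625). Whether the forms differ in this was not tested.

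The share of the A form varied far less between replicates than either level did. Of the sum of both forms, the A form made up 55.7, 56.0 and 58.1% in 8107 at 35 DAF, against 32.3, 30.7 and 32.6% in 8106 at 35 DAF. At 15 DAF it made up 37.9, 34.1 and 38.3% in 8107 and 31.4, 31.2 and 32.5% in 8106. All 3 libraries of 8107 were above those of 8106 at either stage, and 8107 at 35 DAF was the only group in which the A form outnumbered the G form. The means were 56.6 ± 1.3% in 8107 and 31.8 ± 1.0% in 8106 at 35 DAF, and 36.8 ± 2.3% in 8107 and 31.7 ± 0.70% in 8106 at 15 DAF (SD, n = 3 each). In 8106 the shares at 35 and 15 DAF overlapped. With every miR1515 sequence counted, the A forms made up 55.9 ± 1.1% in 8107 and 30.7 ± 1.8% in 8106 at 35 DAF, and 36.0 ± 2.1% in 8107 and 30.9 ± 0.76% in 8106 at 15 DAF (SD, n = 3 each).

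The 5′ trimmed csi-miR1515_L-1, of the G form, read 14.2, 15.2 and 23.2 in 8107 at 35 DAF, 21.8, 32.2 and 19.0 in 8106 at 35 DAF, 33.7, 43.8 and 34.2 in 8107 at 15 DAF, and 68.3, 47.1 and 57.9 in 8106 at 15 DAF. Both lines were lower at 35 DAF in 3 of 3 libraries. It fell at 35 DAF relative to 15 DAF, with a log2 difference of -1.07 ± 0.28 in 8107 (limma, adjusted p = 0.0102) and of -1.23 ± 0.28 in 8106 (limma, adjusted p = 0.00544). The differences were -0.76 in 8107 and -1.81 in 8106 at equal library totals, and both passed. The difference between the lines was -0.45 ± 0.28 at 35 DAF (limma, adjusted p = 0.21), which turned to 0.56 at equal totals, and -0.61 ± 0.28 at 15 DAF (limma, adjusted p = 0.147), where voom gave -0.59 (adjusted p = 0.0064).

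The other miR1515 sequences were near the floor of the table. csi-MIR1515-p3_1ss19GA reached at most 22.1, csi-miR1515_L-2_1ss11GA 11.3 and csi-miR1515_L+1 20.0 normalized reads. These 3 were tested and passed in no comparison by limma at the main settings. With a pseudocount of 10, the 1 member called between the lines at 15 DAF was among these 3. They were at 0 in some libraries, so their fold changes are not given. csi-miR1515_L+1 read 20.0, 13.9 and 14.3 in 8106 at 15 DAF and 12.8 or less in each of the other 9 libraries. csi-miR1515_L-4_1ss11GA, above 0 in 6 libraries at 6.85 or less, was not tested. csi-miR1515_R+1_1ss11GA was not tested either; it was listed at 13.4 and 17.6 in 8107 replicates 1 and 3 at 35 DAF and at 0 in the other 10 libraries.

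For miR162, which limits DCL1 in Arabidopsis, the usually kept 3′ arm varied least of the tested members on the deposited scale. gma-miR162a_R+1 read 802, 686 and 732 in 8107 at 35 DAF, 980, 850 and 642 in 8106 at 35 DAF, 638, 548 and 643 in 8107 at 15 DAF, and 723, 623 and 706 in 8106 at 15 DAF. The groups overlapped except between the stages of 8107. It passed in no comparison by limma: the log2 difference was -0.14 ± 0.15 between the lines at 35 DAF and -0.17 ± 0.15 at 15 DAF, and 0.28 ± 0.15 between the stages in 8107 and 0.25 ± 0.15 in 8106, with adjusted p of 0.495, 0.503, 0.165 and 0.261. The 95% intervals ran from -0.48 to 0.21, -0.51 to 0.18, -0.06 to 0.62 and -0.09 to 0.59 in that order. The 35 DAF line difference was called in both directions under other scalings: it was 0.92 (adjusted p = 0.000601) at equal library totals and 0.84 (adjusted p = 0.000332) with voom, and -0.82 (adjusted p = 0.0046) under quantile normalization and -0.54 (adjusted p = 0.0464) under median centring. The stage difference also passed in 8107 at equal totals (0.61, adjusted p = 0.00985) and with voom (0.65, adjusted p = 0.00141), and in 8106 under quantile normalization (0.58, adjusted p = 0.041). The steady level thus belongs to the deposited scale. Without 8106 replicate 3 at 35 DAF, the stage difference in 8106 was 0.42 (limma, adjusted p = 0.0304).

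The 5′ arm of miR162 was called lower at 35 DAF in both lines, in 8106 only under some settings. gma-MIR162c-p5 read 61.1, 80.6 and 54.5 in 8107 at 35 DAF against 181, 247 and 230 in 8107 at 15 DAF. In 8106 it read 80.0, 154 and 74.5 at 35 DAF against 145, 243 and 201 at 15 DAF. The stages did not overlap in 8107; in 8106 they overlapped through replicate 2 at 35 DAF. It fell at 35 DAF, with a log2 difference of -1.74 ± 0.30 in 8107 (limma, adjusted p = 0.00101) and of -0.98 ± 0.30 in 8106 (limma, adjusted p = 0.0271). At equal library totals these were -1.41 and -1.58, and both passed. In 8106 adjusted p was 0.0985 without replicate 2 at 15 DAF, 0.0817 without replicate 3 at 15 DAF, 0.0953 without replicate 1 at 35 DAF and 0.0902 without replicate 3 at 35 DAF, and the difference was -0.68 (adjusted p = 0.141) under quantile normalization. The call in 8106 was lost too under median centring (-0.77, adjusted p = 0.148) and with the 6 libraries alone (adjusted p = 0.114). It held with voom (-1.81, adjusted p = 1.2e-05). The stage changes of the lines differed by -0.76 ± 0.42 (limma, adjusted p = 0.174), which turned to 0.16 at equal totals. Between the lines the difference was -0.58 ± 0.30 at 35 DAF (limma, adjusted p = 0.129) and 0.18 ± 0.30 at 15 DAF (limma, adjusted p = 0.773). At 35 DAF it was called lower under quantile normalization (-1.16, adjusted p = 0.0137) and median centring (-0.99, adjusted p = 0.0463). With voom it was called higher (0.62, adjusted p = 0.0444), so no direction is given.

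As a percentage of gma-miR162a_R+1, the 5′ arm stood at 7.62, 11.7 and 7.44 in 8107 at 35 DAF against 28.4, 45.0 and 35.7 in 8107 at 15 DAF. In 8106 it stood at 8.16, 18.1 and 11.6 at 35 DAF against 20.1, 39.0 and 28.5 at 15 DAF. All 6 libraries at 35 DAF were below all 6 at 15 DAF, and the lines overlapped at either stage. The entries are named for different soybean hairpins, a and c, so these may not be the strands of 1 duplex. The third sequence, ptc-miR162a_R+1, extends gma-miR162a_R+1 by 1 base and was not tested. It read 4.47, 4.48 and 8.01 in 8107 at 35 DAF; 8106 at 35 DAF had 5.25 in replicate 1, 8107 at 15 DAF had 2.85 in replicate 1, and the other 7 libraries were listed at 0.

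**Figure D3:**
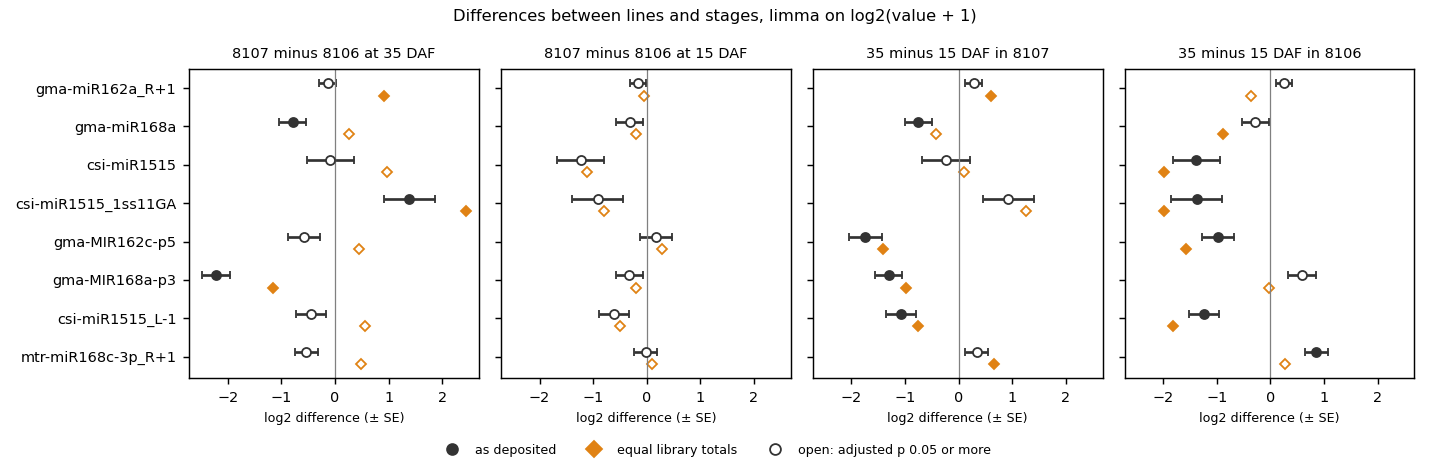
Log2 differences (horizontal axes, circles with SE) of the 8 sequences above 0 in every library, for 8107 minus 8106 at 35 and 15 DAF and for 35 minus 15 DAF in each line; diamonds give the same with equal library totals, and open symbols have an adjusted p of 0.05 or more. At 35 DAF the diamonds of the line comparison lie right of the circles throughout, and gma-MIR168a-p3 is left of 0 in both.

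Counted over the 11 tested members, the line comparison at 35 DAF called 1 higher and 2 lower in 8107 (limma), while 52.4% of all 395 entries were called, 32.2% higher and 20.3% lower. At 15 DAF it called 0 members by limma, with 1 at an unadjusted p under 0.05 and 3 by voom, while 22.5% of all entries were called, 15.7% higher and 6.84% lower. Between the stages, 0 members were higher and 4 lower at 35 DAF in 8107, where 46.3% of all entries were called, 23% higher and 23.3% lower. In 8106, 1 was higher and 4 lower, where 36.2% were called, 13.2% higher and 23% lower. The difference of the stage changes called 1 higher and 1 lower, with 41% of all entries called, 22.3% higher and 18.7% lower. Counted in either direction, the members' shares were below the background except between the stages of 8106, where 5 of 11 were called. Counted as lower alone, the 4 of 11 in each stage comparison were above the background of 23% in 8106 and 23.3% in 8107. In 8106 they were the G form, the A form and csi-miR1515_L-1 of miR1515, and gma-MIR162c-p5. In 8107 they were the strands gma-miR168a and gma-MIR168a-p3 of miR168, gma-MIR162c-p5 and csi-miR1515_L-1. Several are forms or strands of 1 family, so no result about the members is read from these counts. Members whose groups did not overlap numbered 3 of 11 in the 35 DAF line comparison (52.7% of all entries), 5 at 15 DAF (44.1%), 5 between the stages of 8107 (58%) and 7 between those of 8106 (44.6%).

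The median log2 difference over the 11 tested members was -0.36 for the lines at 35 DAF and -0.33 at 15 DAF, against 0.03 and -0.09 over all entries. Between stages it was -0.23 in 8107 and -1.21 in 8106, against 0.06 and -0.24 over all entries. Equal library totals moved the median of all entries to 1.01 for the lines at 35 DAF, 0.34 for the stages of 8107 and -0.77 for those of 8106, so signs of level differences smaller than these shifts belong to the deposited scale. As a share of the library total over the listed sequences, the group means ranked miR168, miR1515 and miR162 in each group. The libraries of miR1515 and miR162 overlapped at 35 DAF. miR168 summed to 1.67 ± 0.25% in 8107 and 1.64 ± 0.50% in 8106 at 35 DAF, and 2.31 ± 0.25% in 8107 and 2.67 ± 0.40% in 8106 at 15 DAF (SD, n = 3 each). miR1515 summed to 0.277 ± 0.11% in 8107 and 0.0976 ± 0.050% in 8106 at 35 DAF, and 0.172 ± 0.032% in 8107 and 0.348 ± 0.10% in 8106 at 15 DAF (SD, n = 3 each). miR162 summed to 0.164 ± 0.016% in 8107 and 0.0901 ± 0.018% in 8106 at 35 DAF, and 0.133 ± 0.0084% in 8107 and 0.130 ± 0.0028% in 8106 at 15 DAF (SD, n = 3 each). For miR162 and miR1515 the lines did not overlap at 35 DAF, with 8107 above 8106, and for miR168 they overlapped. The deposited scale gave another picture at 35 DAF: miR168 summed to 8317 ± 1766 normalized reads in 8107 and 17019 ± 5988 in 8106, with 8107 below 8106 and no overlap (SD, n = 3 each). On that scale miR162 summed to 811 ± 50.5 in 8107 and 929 ± 186 in 8106, and miR1515 to 1350 ± 470 in 8107 and 990 ± 478 in 8106, and the lines overlapped for both (SD, n = 3 each).

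The entries of other families with the most similar course over the 12 libraries were found by the root mean square difference of log2 values after each was centred on its own mean. For gma-miR168a these were gma-miR1511_R+1_1ss12GT at 0.144, gma-miR160a-3p at 0.227 and gma-miR1511_L+1R+1_2 at 0.272, where miR168a itself varied by 0.480. For gma-MIR168a-p3 they were mtr-miR166a_1ss20CT at 0.415, gma-miR171n_1ss20TC at 0.460 and gma-miR1511_L+1R+1_2 at 0.465, against its own 0.858. For gma-MIR162c-p5 they were mtr-miR160a at 0.310, gma-miR160a-3p at 0.376 and mtr-MIR171b-p5 at 0.395, against its own 0.779. The A and G forms of miR1515 had no nearest entry in common. For the A form they were mtr-miR169e-5p_L+2_1ss7CG at 0.425, gma-miR169e_L+3R+1 at 0.427 and ptc-MIR171m-p5_1ss17CT at 0.506, against its own 0.796. For the G form they were the predicted PC-5p-14454_516 at 0.294, gma-miR482a-3p_L-2_1ss14GA at 0.410 and PC-5p-22873_342 at 0.438, against its own 0.771. For gma-miR162a_R+1, whose own variation was 0.216, the nearest differed by 0.227 to 0.275, which is more than that variation.

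Of 3 other miRNA families tied to the small RNA pathway, miR403, miR838 and miR390, entries of miR390 alone were listed. In Arabidopsis miR390 is loaded into AGO7 and starts trans-acting small interfering RNAs from TAS3. Of its 5 sequences 3 were tested, and at 35 DAF all 3 were called higher in 8107 than in 8106 (limma). Of all 395 entries, 32.2% were called higher in that comparison. Other scalings were not tried for miR390. mtr-miR390 averaged 589.5 normalized reads over 3 libraries in 8107 and 76.9 in 8106 at 35 DAF, and 840 in 8107 and 485 in 8106 at 15 DAF, and its log2 difference at 35 DAF was 2.93 ± 0.19 (limma, adjusted p = 4.95e-07). At 15 DAF it was already called higher in 8107, at 0.79 ± 0.19 (limma, adjusted p = 0.0169). Between 15 and 35 DAF mtr-miR390 fell in both lines. The log2 difference was -0.52 ± 0.19 in 8107 (limma, adjusted p = 0.0492) and -2.66 ± 0.19 in 8106 (limma, adjusted p = 1.83e-06). The stage change of mtr-miR390 differed between the lines by 2.14 ± 0.27 (limma, adjusted p = 0.000184).

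The degradome table pairs small RNAs with transcripts cleaved at the site they match. It held 3630 lines, of which 119 named 10 of the 15 members; these made 88 pairs with 63 transcripts, and 31 pairs were listed 2 times. The table names no library, so a listing cannot be assigned to 8107 or 8106, and cleavage cannot be compared between lines or stages. The authors' alignment score runs from 0 to 4 and is lower for a better match. Of the members' lines 9, or 7.56%, scored 2.5 or less, against 24.2% of the whole table. miR1515 gave 99 of the 119 lines, and 5.05% of its lines scored 2.5 or less. The share was 25% over the 16 lines of miR162 and 0% over the 4 lines of miR168. No genome was used here and none of the 63 transcripts matched the reference table, so symbols and positions along the transcript are those of the authors' deposited table.

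The regulators' own machinery was among the listed targets. gma-miR162a_R+1 was paired with 2 DCL1 transcripts at a score of 2, with cleavage at positions 3261 and 3087, each listed 2 times. ptc-miR162a_R+1 was paired with the same sites at a score of 3. gma-miR168a was paired with 2 transcripts, both of AGO1, at a score of 3 and positions 385 and 379, each listed 2 times. No other small RNA in the table, members aside, was listed on the DCL1, AGO1, DCL2B, At3g03300 or FRS5 transcripts. gma-MIR168a-p3, mtr-miR168c-3p_R+1, mtr-miR168b_R+3, gma-MIR162c-p5 and csi-miR1515_L+1 were paired with no transcript.

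The G and A forms of miR1515 were listed on partly different dicer transcripts. All 3 DCL2B transcripts were listed for the A form, at a score of 3.5 and position 2862, 2 times each, and were not listed for the G form. They were also listed 1 time each for csi-miR1515_R+1_1ss11GA at 3.5 and position 2862, for csi-miR1515_L-2_1ss11GA at 3 and position 2860, and for csi-MIR1515-p3_1ss19GA at 2 and position 2857. The last of these does not carry G11A. At3g03300, the Arabidopsis locus code of DCL2, named 2 transcripts: the G form was listed on both, at scores of 4 and 3 and position 960, and the A form on the first alone, at 3.

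FRS5, a FAR1-related protein by its Arabidopsis name, was listed on 2 transcripts for both forms at position 79, at 4 for the G form and 3 for the A form. Over the 4 transcripts that both forms shared, the A form scored lower by 1 in 4 of 4. The 2 FRS5 transcripts among them had the same position and scores. A further 3 transcripts were listed for the A form alone and 1 for the G form alone. The 1 was an At3g03300 transcript on which the G form scored 3. No score is listed there for the A form, so the comparison of scores does not cover it. The 3 were those of DCL2B, where the A form scored 3.5; the table lists no score above 4, so a score higher by 1 there would not be listed, and the missing entry is not evidence that the G form lacks the site. The score is computed from sequence, so it holds no measure of how much transcript was cut.

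**Figure D4:**
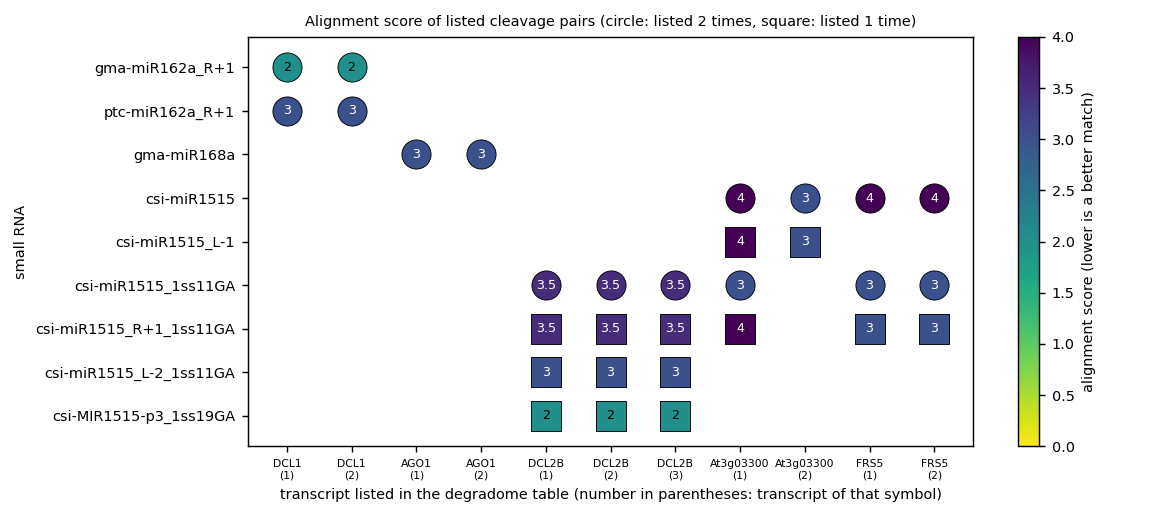
Authors' alignment score (colour and printed number; lower is a better match) for each listed pair of a member (rows) and a transcript named DCL1, AGO1, DCL2B, At3g03300 or FRS5 (columns); circles were listed 2 times and squares 1 time. The A form, at 3.5, and csi-MIR1515-p3_1ss19GA, at 2, stand on all 3 DCL2B transcripts, where csi-miR1515 has no symbol.

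Most of the other pairs came from the shortest forms. csi-miR1515_L-4_1ss11GA, of 18 bases, was paired with 31 transcripts, and csi-miR1515_L-2_1ss11GA, of 20 bases, with 19. The best of the shorter form was glpV at 2.5, and ICR3, At4g31140, At4g39010, At1g67900, PAB1 and THRRS were listed at 4. csi-miR1515_L-2_1ss11GA was listed on CCT3 and Ttll3 transcripts at 4. gma-miR162a_R+1 and ptc-miR162a_R+1 were each paired with 4 transcripts without a symbol, at 4, beside DCL1. Of the 63 transcripts 31 carried no symbol. Cleavage positions were counted back along the transcript from the 3′ end of the aligned range. The count was 10 in 51.1% of the members' pairs, against 79.6% of all pairs. It was 9 in 29.5% of the members' pairs, against 9.37% of all pairs, and 11 in 19.3%, against 11.1%. Gaps in the alignment were not taken into account, so the base of the small RNA opposite the cut is not given. On DCL1, where the count was 11, the 21 bases of gma-miR162a_R+1 were aligned to the longer range 3250 to 3271 of 1 transcript. Of the other small RNA pathway genes looked for by symbol, DRB2, a double-stranded RNA binding protein, was listed on 2 transcripts, at 3.5 for vvi-MIR3630-p5_2ss17AG18CT.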

How the data were processed

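Per the labels' protocols, peanut seed RNA went into TruSeq small RNA libraries, read from 1 end over 50 bases, and the degradome adaptor joined only fragments with a 5′ monophosphate. Bowtie is named in the submitters' processing notes without a version or role. The small RNA table holds normalized reads, a signal per library deposited by the authors and named in its headers; the method was not given in the sources used here. The degradome table holds the authors' alignment score and cleavage position, per the file headers.

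Line, stage and replicate came from the labels. The 1082 lines were reduced to 795 sequences. The values were not raw counts, so the test planned for normalized values was used: limma 3.58.1 in R 4.3.3 on log2(value + 1), using a trend, for the 395 entries that reached 10 in 3 or more of the 12 libraries. Each group had 1 mean, and replicates were not blocked. Fold changes on this scale understate the change of low entries, and are given for the 8 members above 0 in all libraries. The step is the value that 98.2 to 99.4% of a library's values are whole multiples of, within 0.02. Every member was described by name; the 3 most alike entries were taken by smallest difference. Alternatives were another pseudocount, other filters, 3 other scalings, a replicate block, voom, fits of the compared libraries alone and leaving out each library; a filter on score and a count of transcripts were tried for the degradome. The fit was tested on simulated data. The members and lists were chosen with earlier results of these data known. Whether replicates were separate plants is not stated in the labels; p-values thus describe spread among libraries, possibly technical.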

Additional observations from a re-analysis of the deposited data

Results flagged for a closer look

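For 2 members the change between stages differed between the lines in the limma test of that difference. The log2 change of gma-MIR168a-p3 between 35 and 15 DAF was lower in 8107 than in 8106 by 1.89, written as -1.89 for 8107 minus 8106, and it was -0.95 with equal library totals and -1.64 with quantile normalization. The change of csi-miR1515_1ss11GA was higher in 8107 than in 8106 by 2.30, and it was 3.24 with equal library totals and 1.95 with quantile normalization. Both passed under each of the 3 other scalings. The library totals of the lines also differed at 35 DAF, and their part in these differences was not tested; the within-library percentages of the strands of miR168 and of the A and G forms of miR1515 do not depend on them.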

How the results depend on the processing

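Scaling mattered most. With equal library totals the sign turned for the 35 DAF line difference of gma-MIR162c-p5 (0.46), gma-miR162a_R+1 (0.92), gma-miR168a (0.27), mtr-miR168c-3p_R+1 (0.48), csi-miR1515 (0.97) and csi-miR1515_L-1 (0.56), for the 15 DAF line difference of mtr-miR168c-3p_R+1 (0.093), for the stage difference in 8106 of gma-miR162a_R+1 (-0.36) and gma-MIR168a-p3 (-0.017) and in 8107 of csi-miR1515 (0.10), and for the difference of stage changes of gma-MIR162c-p5 (0.16), gma-miR168a (0.47) and mtr-miR168c-3p_R+1 (0.39). Voom gave 0.62, 0.84, 0.33, 0.66, 0.84 and 0.61 for the same 6 at 35 DAF, 0.043 for mtr-miR168c-3p_R+1 at 15 DAF, -0.21, -0.17 and 0.40 for the stage differences, and 0.33, 0.53 and 0.61 for the difference of stage changes. Quantile normalization turned gma-MIR162c-p5 at 15 DAF (-0.014), gma-miR168a at 35 DAF (0.024) and in the difference of stage changes (0.64), and there gma-miR162a_R+1 (-0.42). It brought the difference of gma-miR168a between the stages of 8107 to 0.00, without a sign. Median centring turned gma-MIR162c-p5 at 15 DAF (-0.067) and gma-miR162a_R+1 in the difference of stage changes (-0.13). The cause was not tested. Apart from leaving out libraries, the log2 differences of the 8 members kept their direction and side of the threshold in 252 cases. They lost the call in 18, gained one in 39 and turned or went to 0.00 in the 33 above.

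Members called between the lines at 15 DAF, 0 as reported, numbered 1 with a pseudocount of 10, with entries at 50 or more, with median centring or with the 6 libraries compared alone, 4 with quantile normalization and 3 with voom. With entries at 50 or more, with median centring and with the 6 libraries alone, that 1 was the G form of miR1515. At 35 DAF the 3 became 5 with median centring, 6 with voom and 1, gma-MIR168a-p3, with the 6 libraries alone. Between the stages of 8106 the 5 became 3 with no filter, with entries at 50 or more or with median centring, and 2 with the 6 libraries alone. Between those of 8107 the 4 became 7 with voom. The 2 for the difference of stage changes became 5 with equal totals and 6 with voom. Of all entries, 134 were called between the lines at 35 DAF and 118 between the stages of 8107 at 50 or more, 137 at 35 DAF with the 6 libraries alone, and 165 at 15 DAF with voom. The 119 degradome lines of members became 9 at a score of 2.5 or less and 63 as transcripts.

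Leaving out 1 library in turn gave 1 to 3 members for the lines at 35 DAF, 2 to 5 for the stages of 8106, 1 to 2 for the difference of stage changes, and 42 to 81 entries at 15 DAF. Line differences ranged from -0.026 to 0.34 for gma-MIR162c-p5 and -0.12 to 0.032 for mtr-miR168c-3p_R+1 at 15 DAF, and from -0.60 to 0.26 for csi-miR1515 at 35 DAF. The stage difference of csi-miR1515 in 8107 ranged from -0.40 to 0.10, and the difference of stage changes from -0.14 to 0.17 for gma-miR162a_R+1 and -0.043 to 0.38 for csi-miR1515_L-1.

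Correlations between libraries were taken on log2(value + 1) after the group mean of each entry was subtracted. Libraries of the same number in different groups then correlated at 0.039 to 0.677 with a median of 0.3. Those of different numbers correlated at -0.652 to 0.593 with a median of -0.23. The deviations within a group sum to 0 for each entry, so these sets of correlations are not independent. By this measure 8 of 12 libraries correlated best with their own number, a hint from the data and not the design. Not every same-numbered pair was above 0.1, so the numbers were not taken to pair the samples. With the replicate number as a block, 3 members and 145 entries were called between the lines at 15 DAF, 5 members at 35 DAF, 7 between the stages of 8106, 5 between those of 8107 and 4 in the difference of stage changes. Calls gained with the block were the G form (adjusted p = 0.00801) and the A form (0.0233) of miR1515 at 15 DAF, gma-MIR162c-p5 (0.0223) and mtr-miR168c-3p_R+1 (0.0464) at 35 DAF, gma-MIR168a-p3 between the stages of 8106 (0.00993), the A form between those of 8107 (0.0132), and gma-MIR162c-p5 (0.0376) and the G form (0.0345) in the difference of stage changes, and csi-miR1515_L+1 at 15 DAF (0.0234) and between the stages of 8106 (0.0394). Depth limits the members near the floor, where values of 0 may hide a few reads.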

Other observations

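Replicate 2 stood at the same end of its group for several members. Among the 3 libraries of a group it was the highest in 4 of 4 groups for gma-miR168a, gma-MIR168a-p3 and gma-MIR162c-p5, and the lowest in 4 of 4 groups for csi-miR1515_1ss11GA and csi-miR1515_L+1. gma-miR168a thus read 13.1 times gma-miR162a_R+1 in replicate 2 of 8107 at 35 DAF, against 9.62 and 8.00 times in the other two, and 21.8 times in replicate 2 of 8106 at 35 DAF, against 12.8 and 14.0 times. The labels tie the number 2 to no shared plant, day or batch.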
